A study of Mytilus galloprovincialis with 8 samples.

Results

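Digestive gland and gill were compared in mussels (Mytilus galloprovincialis) that had met no toxic alga, using the control channel of all 8 arrays of an oligonucleotide microarray study of okadaic acid. Of the 16 channels on these arrays, the 8 that held control RNA were chosen by the labels, 4 for digestive gland and 4 for gill. They represent 4 of the 8 RNA extracts, namely 2 from digestive gland and 2 from gill, each measured on an array and on its dye swap, where Cy3 and Cy5 are exchanged. An extract came from pooled tissue of 5 adult mussels collected at a beach free of blooms, kept in aerated seawater and fed the microalgae Tetraselmis suecica and Isochrysis galbana. The other channel of each array held the same tissue from mussels that had also eaten Prorocentrum lima, a dinoflagellate that makes okadaic acid, for 24 h (200 cells/ml in the labels, whereas the methods give this number per litre). The methods speak of 2 biological replicates per tissue. The labels number the control extracts but do not say that they came from separate pools, so that p-values measure only the spread between these extracts.

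The digestive gland of a bivalve takes up and digests food particles within its cells, stores reserves and accumulates lipophilic algal toxins. The gill is a sheet of ciliated filaments that moves water, captures particles and exchanges gases. Tissues with such different work are known to use different sets of transcripts at high levels, beside a common set needed by every cell. In pooled tissue, fewer cells of a type and less RNA per cell cannot be told apart.

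The array carried 51300 probes for contigs assembled from cDNA libraries, all of which the study made from digestive gland. Probes are named here by class of contig name. The name cDNA_MGT was read as the normalized library of exposed mussels (19188 probes), cDNA_MGC as that of control mussels (17037 probes) and mgt200.forw as the forward library of suppression subtractive hybridization (SSH), a method that enriches transcripts more abundant in the exposed mussels (15070 probes). This reading follows the library codes in the methods and is an inference. Another 5 probes have other names, among them H2AZ, the only name that is a gene's. The files used here pair no other probe with a gene, a sequence or a position in the genome. The tissue labels therefore could not be checked against marker genes such as digestive enzymes or ciliary proteins, and several probes may target the same transcript.

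All arrays lay on 1 slide and were read in 1 scan. Digestive gland occupied one row of the slide and gill the other, so that slide row and tissue cannot be told apart. The dye of 1 digestive gland control extract is given as Cy6 in the labels and was read as Cy5. No spot was saturated in the control channel. Across probes, the 8 control channels correlated at 0.9955 to 0.9979 within digestive gland, at 0.9862 to 0.9923 within gill and at 0.7544 to 0.7632 between the tissues, on normalized log2 intensities and with probes that are not independent replicates.

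More of the array's transcripts were detected in digestive gland than in gill. A probe was counted as detected in a channel when the scanner software marked a spot of it as well above background, a mark that does not depend on the scaling between arrays. In digestive gland 54.33% and 58.17% of the probes were detected in replicate 1 (Cy3 and Cy5) and 53.36% and 59.45% in replicate 2, against 42.77% and 41.31% in replicate 1 and 41.49% and 40.23% in replicate 2 of gill. All 4 digestive gland channels exceeded all 4 gill channels, with 27375 to 30497 probes against 20637 to 21941. With 2 extracts per tissue, no exact permutation test can give a two-sided p below 0.3333.

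Few transcripts were detected in gill only. On all 4 arrays of digestive gland and on none of gill, 5511 probes were detected (10.7% of all probes). The opposite pattern was found in 182 probes (0.355%). Detected on every array of both tissues were 17889 probes (34.9%), on no array 17740 (34.6%), and on some 9978 (19.5%). The array was designed from digestive gland transcripts only, so that transcripts absent from digestive gland had no library from which to enter it. The gill channels were also dimmer, with a median signal over background of 10.5 to 50 in digestive gland and 2 to 8 in gill, and a 75th percentile of 104 to 422 and 23 to 56. The part of either in the imbalance was not tested.

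Transcripts detected in digestive gland only were unevenly spread over the libraries. They made up 16.4% of the mgt200.forw probes (2474), 9.21% of cDNA_MGC (1569) and 7.65% of cDNA_MGT (1468), beside 10.7% of all probes. Gill-only probes stayed below 0.5% in each class, at 0.252% of mgt200.forw (38), 0.423% of cDNA_MGC (72) and 0.375% of cDNA_MGT (72). Probes for transcripts detected in both tissues were most frequent in cDNA_MGC (40.3%), followed by cDNA_MGT (34.6%) and mgt200.forw (29.1%). The SSH class thus had the highest share of digestive gland only probes and the lowest share of probes detected in both tissues.

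**Figure D1:**
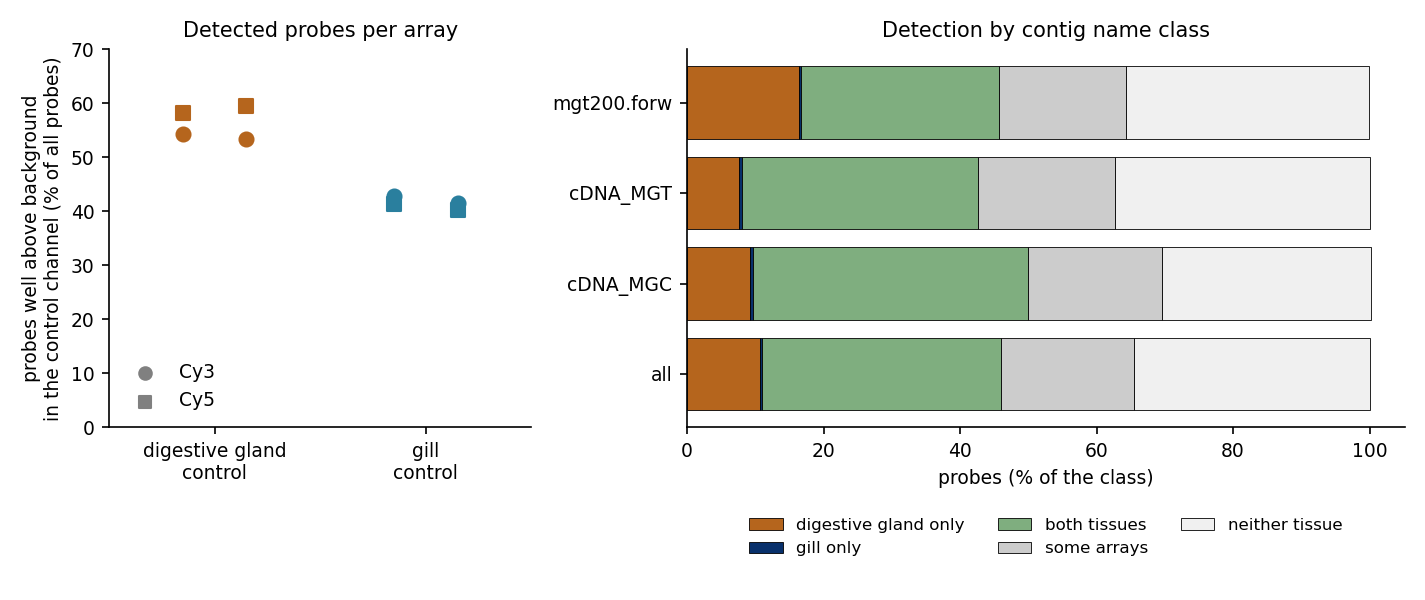
Left, share of the 51300 probes well above background in the control channel of each array (circles Cy3, squares Cy5; for each tissue, replicate 1 on the left and replicate 2 on the right). Right, share of the probes of each contig name class by tissue of detection; digestive gland only was highest in mgt200.forw (16.4%), and gill only stayed below 0.5% in every class.

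The low level of most one-tissue transcripts limits the size of the difference they can show. A probe that is not well above background has only a bound there, so the brighter tissue was set against the higher of the dim probe's own signal and the lowest signal well above background. By this measure 2300 of the 5511 digestive gland only probes were at least 2-fold higher in digestive gland, 1173 at least 4-fold and 141 at least 16-fold. Of the 182 gill only probes, 65 were at least 2-fold higher in gill, 9 at least 4-fold and 0 at least 16-fold. The largest bound was at least 87.8-fold in digestive gland and at least 15.6-fold in gill. These bounds were computed after loess and Aquantile normalization only. Under all 6 scalings compared between arrays, 3433 of the digestive gland only probes (62.3%) were called higher in digestive gland and 44 of the gill only probes (24.2%) higher in gill.

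The signal of gill was concentrated in far fewer probes of this array. The 100 brightest of the 51300 probes carried 18.76% and 24.26% of the summed signal of a channel in replicate 1 of digestive gland (Cy3 and Cy5) and 16.82% and 24.88% in replicate 2, against 47.28% and 55.87% in replicate 1 and 45.09% and 58.77% in replicate 2 of gill. The ranges did not overlap. The 10 brightest probes held 2.539% to 3.959% in digestive gland and 7.148% to 11% in gill, and the brightest 513 (the top 1%) held 48.59% to 58.77% and 79.32% to 86.16%. These shares are computed within a channel on background-corrected (normexp) signal and do not change with the scaling between arrays. They are shares of fluorescence, in which probes differ in how well they bind. Gill RNA without a probe on this digestive gland array is not counted, and several probes may target the same transcript. The gill channels were also dimmer, and the part of this in the concentration was not tested.

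**Figure D2:**
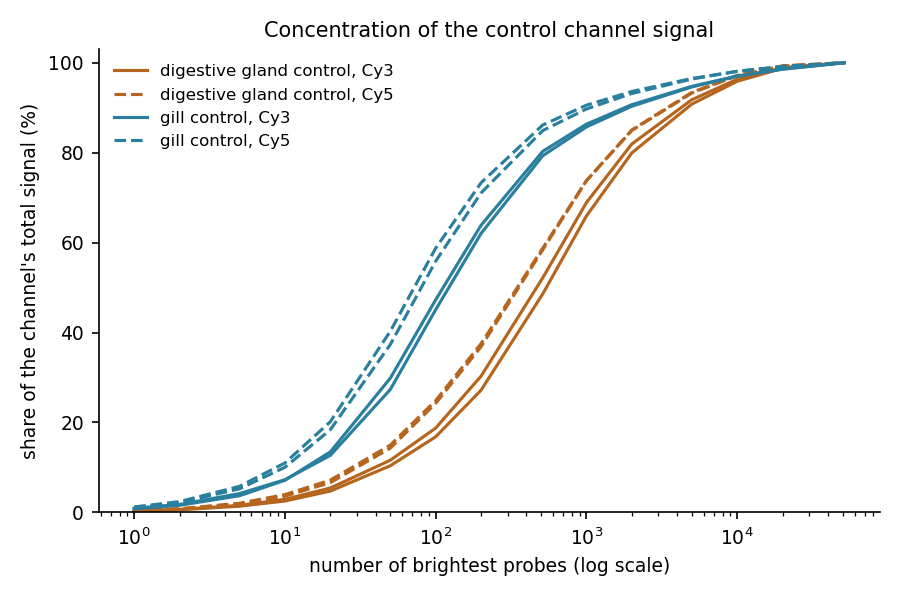
Cumulative share of a control channel's total background-corrected (normexp) signal (%) against the number of brightest probes (log scale), 1 line per channel, solid for Cy3 and dashed for Cy5. The 4 gill lines lie above the 4 digestive gland lines: 100 probes carried 45.09% to 58.77% in gill and 16.82% to 24.88% in digestive gland.

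About 1 in 2 of the brightest probes were common to the tissues. Of the 10 brightest probes of each tissue 5 were shared, of the 100 brightest 51 and of the 513 brightest 251. The classes of the 100 brightest differed: in digestive gland 65 were mgt200.forw, 26 cDNA_MGC and 9 cDNA_MGT probes, and in gill 40, 47 and 13. The 51 shared probes had a median level of 17.37 in digestive gland and 17.41 in gill on the normalized log2 scale. The 49 among the 100 brightest of digestive gland alone had medians of 16.6 in digestive gland and 12.59 in gill, whereas the 49 of gill alone had 15.79 in digestive gland and 16.81 in gill. Probes that lead in gill were hence mostly bright in digestive gland too, whereas those that lead in digestive gland were well below that level in gill. As the sets were picked by level, this is a description. All contigs came from digestive gland libraries, so that transcripts absent from digestive gland could not be among the leading gill probes.

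Many transcripts were differentially expressed between the tissues. For the comparison, intensities were background-corrected (normexp), quantile-normalized over the 8 control channels, turned to log2 and averaged over the spots of a probe and over the dye swap, which leaves 2 values per tissue. Limma called 26390 of 51257 probes (51.5%) at a Benjamini-Hochberg adjusted p under 0.05. Of these 10384 were higher in digestive gland (20.3% of the probes tested) and 16006 were higher in gill (31.2%). Without the array whose dye is given as Cy6, 25648 probes were called, with 10075 higher in digestive gland and 15573 in gill.

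The balance of the directions depended on how the arrays were scaled. Digestive gland was the higher tissue for 39.3% of the calls after quantile normalization, for 37.8% after loess and Aquantile, for 19.2% when the 75th percentiles were set equal and for 42.2% with equal medians. Without any scaling it was higher for 96.4%, and with scaling on the spots of the E1A spike-in RNA for 99.1%. The median difference over all probes (digestive gland minus gill, log2) was -0.06 after quantile normalization, -0.31 and -0.11 with equal 75th percentiles and medians, 0.27 without scaling and 0.48 with spike-in scaling. The spike-in spots themselves were dimmer in digestive gland, with a mean intensity of 2700 against 6250 in gill in Cy3 (10 of 10 spike-in probes lower, -1.17 on the log2 scale) and of 11130 against 13540 in gill in Cy5 (6 of 10 lower, -0.27). The amount of spike-in RNA per extract is not given in the sources used here. Whether the general shift between the tissues lies in the RNA or in the labelling therefore cannot be told apart, and 25999 probes were called in opposite directions by different scalings.

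**Figure D3:**
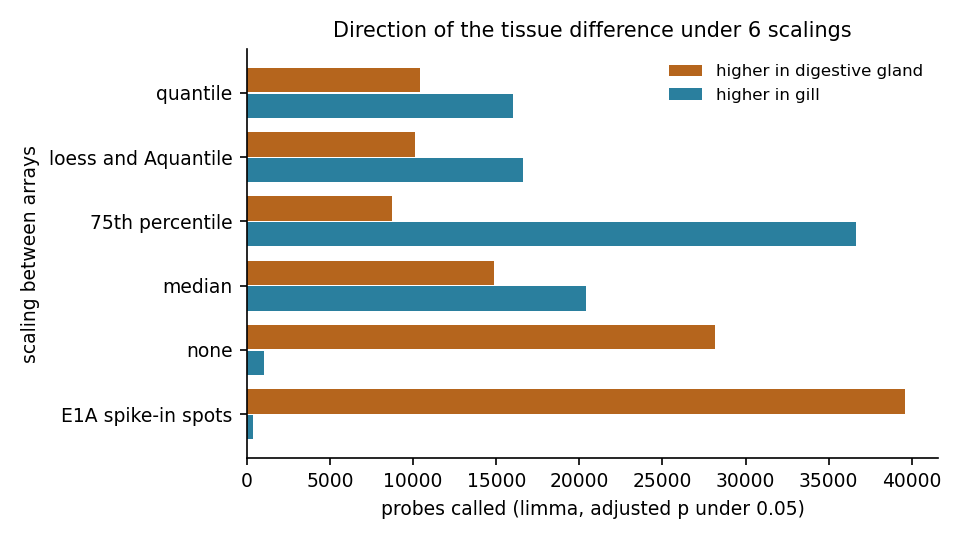
Number of probes called higher in digestive gland and higher in gill (limma, adjusted p under 0.05) under 6 ways of scaling the control channels. The majority was higher in gill under 4 of them (quantile, loess and Aquantile, 75th percentile and median) and higher in digestive gland without scaling (28149 against 1040) and with spike-in scaling (39596 against 361).

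More of the digestive gland calls than of the gill calls held under every scaling, a result that depends on the scalings chosen. Called higher in digestive gland under all 6 scalings were 8000 probes (15.6% of 51300 and 77% of the digestive gland calls), with a median level of 8.16 in digestive gland and 6.47 in gill. Called higher in gill under all 6 were 361 (0.704% of the probes and 2.26% of the gill calls), with a median level of 6.70 in digestive gland and 9.91 in gill. Spike-in scaling alone set this gill number, as it called 361 probes higher in gill, and without scaling 1040 were called. The counts held therefore do not rank the directions by reliability. All 2760 probes called with more than a 4-fold excess in digestive gland (over 2 on the log2 scale) held their direction, and 289 of the 1373 with such an excess in gill. By class, 23.1% of the mgt200.forw probes were higher in digestive gland under all scalings, 14.7% of cDNA_MGC and 10.5% of cDNA_MGT, while 0.445%, 0.974% and 0.667% were higher in gill.

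The tissue difference was far larger than the spread between extracts. Over all probes its SD was 1.14 on the log2 scale, whereas the difference between the 2 extracts had an SD of 0.0965 in digestive gland and 0.159 in gill. Among the 17838 probes that were well above background on all 8 arrays and measured in exposed mussels too, the median absolute difference was 0.77, and 6941 (38.9%) differed by more than 2-fold. Large differences favoured digestive gland after quantile normalization. An excess of more than 2-fold was called for 4803 digestive gland and 5273 gill probes, of more than 4-fold for 2760 and 1373, of more than 8-fold for 1703 and 319, of more than 16-fold for 907 and 93, and of more than 64-fold for 77 and 7. Of the 907 probes past 16-fold in digestive gland, 656 were well above background in both tissues.

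Abundant digestive gland transcripts fell into separate groups by their level in gill. Of the 1190 probes at a normalized log2 level of 12 or more in digestive gland, 606 (50.9%) exceeded gill by more than 3 and 295 lay within 1 of gill, but only 40 exceeded gill by 1 to 3, and 249 were lower than in gill by more than 1. At levels of 14 to 15 these numbers were 102, 49, 2 and 35. The same view from gill showed no such gap. Of the 1205 probes at 12 or more in gill, 178 (14.8%) exceeded digestive gland by more than 3, 655 by 1 to 3, 320 lay within 1, and 52 were lower than in digestive gland by more than 1. The groups were counted after quantile normalization only, and whether the gap appears under another scaling was not examined. They were formed after the values had been seen and carry no test.

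The digestive gland group gave signal above background in gill too. Of its 606 probes, 582 were well above background on all 8 arrays. Whether gill cells made these transcripts was not tested, as no probe sequence or marker gene could be checked. Their median excess was 4.78. By level in digestive gland it was 4.59 for probes of 12 to 13, 4.99 for 13 to 14, 5.05 for 14 to 15, 5.06 for 15 to 16 and 4.10 above 16. As the group was cut at an excess over 3, its median could not fall below 3. Below the level of 12, probes past an excess of 3 had a median of 3.34 at 9 to 10, 3.94 at 10 to 11 and 4.41 at 11 to 12. Across the group, the levels in the tissues correlated at r = 0.826, a value over probes that were selected by these levels. Over the 597 probes measured in every extract of both treatments, the median level was 13.33 and 13.31 in the 2 digestive gland control extracts, against 8.56 and 8.60 in the 2 gill control extracts. By class, 288 were mgt200.forw, 218 cDNA_MGC and 100 cDNA_MGT probes, and of the 295 probes within 1 of gill 111, 137 and 47.

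**Figure D4:**
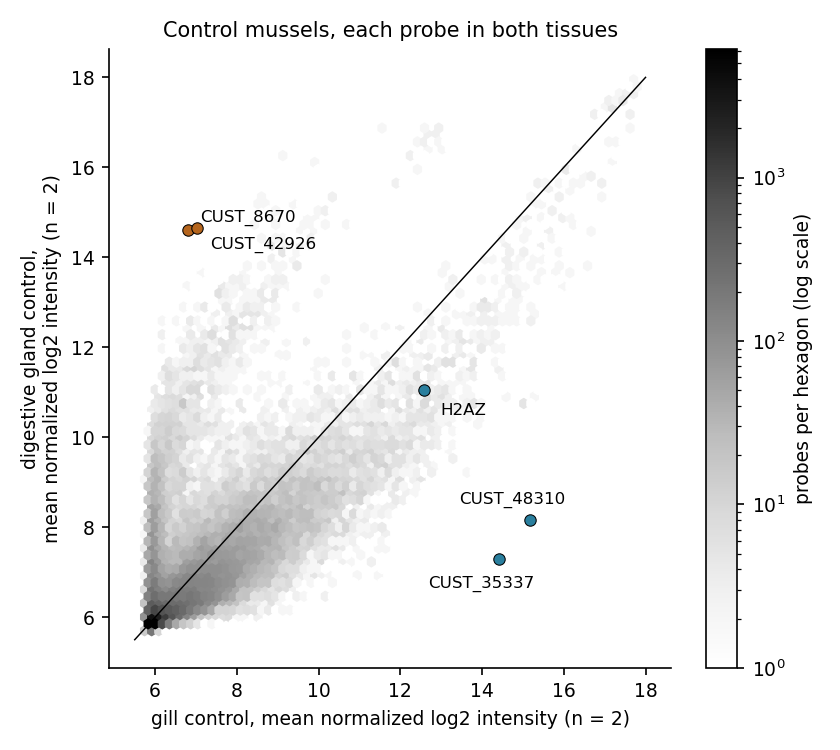
Mean normalized log2 intensity of each probe in gill control (x axis, n = 2 extracts) and digestive gland control (y axis, n = 2), shaded by the number of probes per hexagon on a log scale; the line marks equal levels and the named probes are coloured. Above a level of 12 in digestive gland, a cloud of 606 probes more than 3 above gill is parted from the cloud along the line by a sparse band of 40 probes.

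The probes with the largest differences were chosen among those called and well above background on all 8 arrays, the leading pair in each direction. CUST_8670_PI427859148 (contig cDNA_MGC_rep_c8671) had 14.73 and 14.49 in the 2 digestive gland extracts, against 6.82 and 6.79 in gill. It was 224-fold higher in digestive gland (7.81 on the log2 scale, SE 0.0912, limma adjusted p = 7.584e-07). CUST_42926_PI427859148 (mgt200.forw_c9301) had 14.49 and 14.81 in digestive gland, against 6.92 and 7.14 in gill, a 197-fold difference (7.62, SE 0.128, limma adjusted p = 1.128e-06). In both, the gill values lay near the dim end of the detected range while the digestive gland values were among the brighter ones.

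In the other direction, CUST_35337_PI427859148 (cDNA_MGT.90_c22933) had 7.26 and 7.35 in digestive gland, against 14.41 and 14.43 in gill, and was 139-fold lower in digestive gland (-7.12, SE 0.0564, limma adjusted p = 7.584e-07). CUST_48310_PI427859148 (mgt200.forw_c16453) had 8.12 and 8.20 in digestive gland, against 15.41 and 14.95 in gill (-7.02, SE 0.156, limma adjusted p = 2.283e-06). Extracts of the tissues did not overlap in any of these probes, which the choice of the largest differences all but ensured. Both gill probes come from contigs of digestive gland libraries although their level there was low. The direction and the call of all 4 held under the 21 alternative settings run for them, which the same choice favours, but the size moved. On the log2 scale CUST_8670_PI427859148 ranged between 7.55 and 9.82, CUST_42926_PI427859148 between 7.44 and 9.72, CUST_35337_PI427859148 between -8.08 and -4.68 and CUST_48310_PI427859148 between -7.51 and -4.64, and both gill probes were nearest to 0 with spike-in scaling.

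H2AZ, a histone H2A variant that replaces the ordinary one in some nucleosomes and is found in every tissue of animals, shows the limit set by the scaling. It had 11.05 and 11.06 in digestive gland, against 12.49 and 12.66 in gill (-1.52, SE 0.0711, limma adjusted p = 2.878e-05). With equal medians the difference was 0.15 (adjusted p = 0.04736), without scaling 1.47 and with spike-in scaling 2.18, so that no direction can be given for it. The SD between extracts was 0.007 in digestive gland and 0.118 in gill, each from 2 values, too few to compare the spread of the tissues.

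After quantile normalization the contig classes differed in the direction of their tissue bias, but this depended on the scaling. Of the mgt200.forw probes 29.5% were higher in digestive gland (4441) and 21.6% in gill (3248), beside 20.3% and 31.2% of all probes tested. Of the cDNA_MGC probes 19.1% were higher in digestive gland (3248) and 35.3% in gill (6000), and of cDNA_MGT 14.1% (2695) and 35.2% (6753). The order of the classes was the same among probes detected in both tissues, where 32% of mgt200.forw, 19.5% of cDNA_MGC and 14.3% of cDNA_MGT were higher in digestive gland. Within mgt200.forw, contigs with rep in their name stood out further, with 42.4% higher in digestive gland and 17.1% in gill, against 26.9% and 22.5% of the other contigs. The library was enriched by the study for transcripts of exposed digestive gland and is no random sample of transcripts. Without scaling, digestive gland was higher for 58.2% of mgt200.forw, 57.5% of cDNA_MGC and 50.1% of cDNA_MGT probes, and gill for 1.33%, 2.66% and 2.02%. With spike-in scaling digestive gland was higher for 78.8%, 78.7% and 74.7%, so that all classes leaned to digestive gland and mgt200.forw and cDNA_MGC were nearly alike.

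Among transcripts detected in both tissues, the share higher in digestive gland followed the level after quantile normalization. These probes were split by mean level into 4 groups of equal size. In the dimmest group 6.98% were higher in digestive gland and 70.5% in gill. In the next groups, towards brighter probes, digestive gland was higher for 20.5%, 25.7% and 29.4%, and gill for 62.3%, 60.6% and 61.4%. This order was lost with spike-in scaling, where digestive gland was higher for 94.4%, 93.9%, 94.3% and 91.8% of the groups from dim to bright, and without scaling, where it was higher for 79.7%, 86.1%, 87% and 83.3%. Over all of these probes, 3686 were higher in digestive gland and 11386 in gill after quantile normalization, 8219 and 6167 with equal medians, 15013 and 807 without scaling and 16726 and 279 with spike-in scaling. Of the probes detected in no tissue, limma still called 8.94%, of which 72 were higher in digestive gland and 1514 in gill. These calls lie at the level of the background.

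Mussels exposed to P. lima gave the same contrast in RNA from other animals, measured in the other channel of the same spots. In exposed mussels 21593 of 51237 probes (42.1%) were called, 8530 (16.6%) higher in digestive gland and 13063 (25.5%) higher in gill. The tissue differences of exposed and control mussels correlated at r = 0.9291 over 51210 probes, which share their arrays and spots. Of the probes called in control mussels and tested in exposed ones, 71.1% of the digestive gland side (7365 of 10364) and 70.7% of the gill side (11310 of 15989) were called in the same direction, while 125 and 66 were called in the opposite one. Of the 4133 probes called beyond 2 on the log2 scale in control mussels, 4114 were measured in exposed mussels, and 4103 of these had the same direction there.

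**Figure D5:**
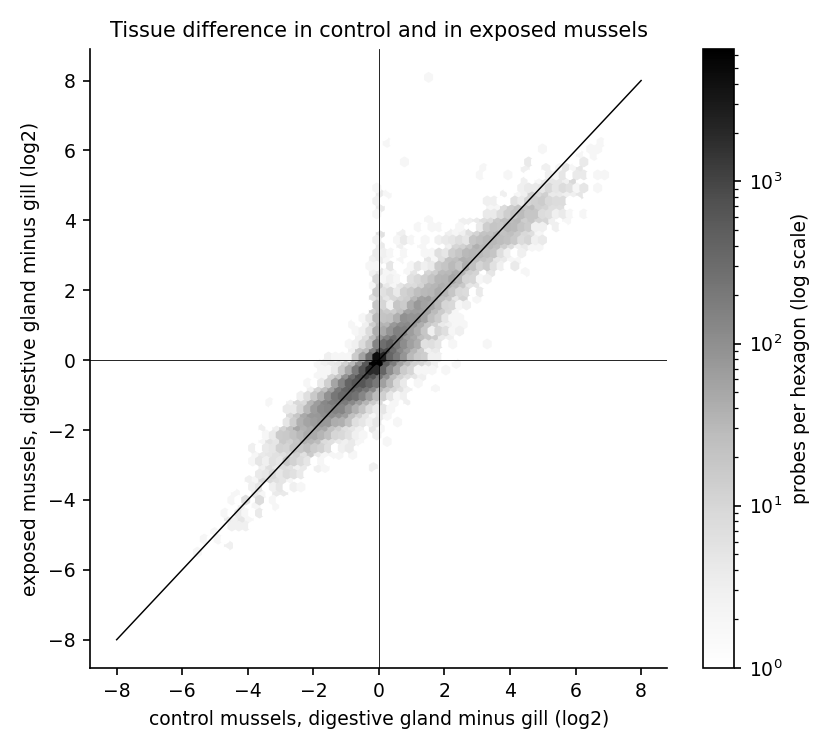
Digestive gland minus gill difference (log2) of each probe in control mussels (x axis) and in exposed mussels (y axis), shaded by the number of probes per hexagon on a log scale; the diagonal marks equal differences. Most probes lie along the diagonal (r = 0.9291 over 51210 probes).

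Most probes called under every scaling in control mussels were also called in the same direction in exposed mussels, where quantile normalization was used. Of the 8000 on the digestive gland side 6234 of 7980 tested (78.1%) were called higher in digestive gland of exposed mussels and 91 higher in gill. Of the 361 on the gill side 321 (88.9%) were called higher in gill and 0 higher in digestive gland. For detection the sides cannot be ranked, as 10.7% of all probes were digestive gland only in control mussels and 0.355% gill only. Of the probes detected on some arrays in control mussels, 11.7% became digestive gland only in exposed mussels and 0.241% gill only. Of the 5511 probes detected in digestive gland only, 3414 (61.9%) were again digestive gland only in exposed mussels and 0 were gill only. Of the 182 gill only probes, 28 (15.4%) were again gill only, 130 (71.4%) were detected on some arrays, 16 on all and 0 in digestive gland only.

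The difference between the tissues itself differed between exposed and control mussels for a small part of the probes. Limma called 2335 of 51210 (4.56%), with digestive gland minus gill higher in exposed mussels for 1373 (2.68%) and lower for 962 (1.88%). Of them, 136 were called in opposite directions in exposed and in control mussels. CUST_42926_PI427859148 was among the calls, with a difference of 6.28 in exposed mussels and 7.62 in control mussels (adjusted p = 0.04755). No call was left when digestive gland replicate 1 or 2 was omitted (0 each, while the unadjusted p was under 0.05 for 6137 and 6417 probes), and 5806 and 3429 were called without gill replicate 1 and 2.

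In exposed mussels the abundant digestive gland group lay nearer to gill. Bright probes within 1 of gill shifted by a similar amount, whereas those far higher in gill hardly moved. In the 597 probes the median excess over gill was 4.30 and 4.10 in replicates 1 and 2 of exposed mussels and 4.80 and 4.74 in control mussels. Their median level was 9.58 and 9.85 in exposed gill and 8.56 and 8.60 in control gill. The group was picked for a large difference in control mussels, a choice that by itself favours a smaller one in exposed mussels. Exposed and control channels were also normalized apart. The bright probes that lay within 1 of gill moved in the same direction. Their median difference was -0.70 and -0.74 in exposed mussels and -0.22 and -0.09 in control mussels (289 probes). The 178 probes at 12 or more in gill that exceeded digestive gland by more than 3 were picked in the same way. Their median difference was -3.68 and -3.70 in exposed mussels and -3.70 and -3.79 in control mussels. Among the probes well above background on all 8 arrays, the 2 exposed gill extracts differed by an SD of 0.461, against 0.186 in control gill, and by 0.185 in exposed digestive gland, against 0.108 in control digestive gland.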

How the data were processed

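For each array the authors deposited intensities from Agilent Feature Extraction 10.7.3.1: for every spot and channel a median, a local background, a processed value and quality marks. The deposited table of log2 ratios of exposed and control RNA was not used. Control channels were found from the labels. Median intensities of the 61657 spots that are not controls (of 62976) were background-corrected with normexp on the background median (offset 50), turned to log2 and quantile-normalized. Spots marked as outliers were left out. Spots of a probe and the 2 arrays of a dye swap were averaged. Limma 3.58.1 in R 4.3.3 was fitted to the 4 values, with 2 residual degrees of freedom, and p-values were adjusted over all probes tested (Benjamini-Hochberg, 0.05). Exposed channels were treated likewise, and the fit was tested on simulated data. A median of 55.75% of the spots was well above background in digestive gland and 40.84% in gill (control channel). The number of extracts, 2 per tissue, limits the precision.

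Bounds were computed on loess and Aquantile values. Named were the leading 2 probes in each direction among those called and detected on all 8 arrays, and any probe with a gene's name. Alternatives changed the background correction, scaling, filters, dye swaps, replicates and threshold. No scaling and spike-in scaling in exposed mussels, and the count of calls held under all 6 scalings, were added after seeing the data, as were the groups by level. The comparison, classes and lists were chosen with earlier results of these data known.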

Additional observations from a re-analysis of the deposited data

How the results depend on the processing

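Of 23 alternatives, 19 gave a count of probes called in control mussels within 1.5 times the 26390 reported; the count was 45371 with equal 75th percentiles, 39957 with spike-in scaling, 15228 over the probes well above background on all 8 arrays and 10076 with a difference over 1 also required. Digestive gland was then higher for 28149 probes without scaling, 39596 with spike-in scaling, 3732 over the bright probes and 4803 past a difference of 1, and gill for 36646 with equal 75th percentiles, 1040 without scaling, 361 with spike-in scaling and 5273 past a difference of 1. The digestive gland share of the calls was 19.2% with equal 75th percentiles, 24.5% over the bright probes, 96.4% without scaling and 99.1% with spike-in scaling, and mgt200.forw, cDNA_MGC and cDNA_MGT probes higher in digestive gland numbered 8756, 9792 and 9598 without scaling, 11872, 13388 and 14332 with spike-in scaling, 1420, 1362 and 950 over the bright probes and 2203, 1484 and 1116 past a difference of 1. The number of probes with a difference over 1, 10076, was 18920 with a normexp offset of 0, 25945 with plain subtraction, 23444 with the processed signals and 18569 with spike-in scaling. H2AZ was higher in digestive gland with equal medians (0.15), without scaling (1.47) and with spike-in scaling (2.18). In exposed mussels 35582 probes were called with equal 75th percentiles, and digestive gland was higher for 21.1% of the calls there, for 98.7% without scaling and for 98.7% with spike-in scaling. Exposed minus control gave 953 calls with an offset of 0 and 666 with the processed signals. Detection in digestive gland only fell to 2073 probes by the software's mark for positive and significant signal, and gill only was 100 by that mark, 523 with 3 of 4 arrays and at most 1 of the other tissue, 785 in Cy3 alone, 292 in Cy5 alone and 314 without gill replicate 2. The cause of these moves was not tested, apart from the fewer probes or stricter rule in a filter or threshold. Leaving out 1 extract in turn gave 20779 to 29865 calls in control mussels, 12161 to 25521 in exposed mussels (12439 and 12161 without digestive gland replicate 1 and 2) and 0 to 5806 for exposed minus control, and 239 to 314 gill only probes. The lone extract of a tissue was then assumed to vary like the other tissue's.

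With replicate number as a block 27276 probes were called in control mussels, 20274 in exposed mussels and 1981 for exposed minus control. The deviations of same-numbered extracts correlated at 0.198 across all probes and at 0.374 across those well above background on all 8 arrays, over 2 pairs, which is too few to show that the numbers pair them.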
